A study of Zea mays with 6 samples.

Results

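Gene models of maize (Zea mays) whose ID numbers lie close to that of ramosa3 (ra3) were compared between developing ears of ra3;tpp4 double mutants and of wild-type (WT) plants. The members were chosen by their ID number and by their summed count. They are the IDs from Zm00001d021943 to Zm00001d022443, 250 numbers either side of Zm00001d022193, that held at least 30 counts over the 6 libraries. Zm00001d022193 is the ID under which ra3 was placed in that choice, and it was left out of the members. Of the 437 other IDs in the range, 272 were members, 61 held fewer than 30 counts and 104 held none. All Zm00001d IDs in the files number 44146, of which 21945 reached the same minimum. The range was proposed with earlier results of these data known, so the counts of changed members are descriptions and not independent evidence.

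The ra3;tpp4 group comprised 3 libraries of plants mutant at ra3 and tpp4, and the WT group comprised 3 libraries of the inbred line B73. Ears 2 to 3 mm long were taken from plants grown in the field, and the series design calls the replicates biological. The labels name no alleles, do not give the line in which the mutations were held, and do not say how many ears went into a library. Polyadenylated RNA was sequenced, and reads per gene ID were counted.

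RAMOSA3 is a trehalose-6-phosphate phosphatase that limits branching of maize inflorescences, and tpp4 encodes a related enzyme. As background, gene models with the prefix Zm00001d are numbered in order along the chromosomes of B73. A mutant allele brought into an inbred line by crossing keeps neighbouring chromosome from its donor, and maize lines differ from each other in gene content and in regulatory sequence. Whether the ra3;tpp4 plants carry such a segment was not tested. The files hold no positions and no names, so every distance below is a difference in ID number. None of the 272 members was found in the RefSeq gene table at hand, and no role is given for any member.

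Libraries of ra3;tpp4 held 19291332 to 25254164 counts over gene IDs, and WT libraries held 25815984 to 26752609. Alignments that were not unique made up 13.1% ± 2.12 of all records in ra3;tpp4 and 20.97% ± 1.51 in WT (SD, n = 3 each). Every ra3;tpp4 library lay below every WT library in that share, and its part in the results on members was not tested. The members took 1.45% ± 0.00877 of gene counts in ra3;tpp4 and 1.48% ± 0.0229 in WT (SD, n = 3 each).

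Zm00001d022193 itself stood at 6.32, 4.29 and 8.97 CPM (counts scaled to library size) in ra3;tpp4 replicates 1, 2 and 3, and at 81.0, 121 and 136 CPM in WT. Its libraries did not overlap, and the level was 17.5-fold lower in the mutants (log2 change -4.13, SE 0.335, edgeR adjusted p = 0.0127). The level of this ID thus separated the libraries as their genotype labels do, with some counts in each of the double mutants.

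Among the neighbours of Zm00001d022193, the called changes lay on the side with the lower numbers. Of the 260 members that passed the filter on low counts, 11 changed between the genotypes (edgeR quasi-likelihood test over 21127 IDs, Benjamini-Hochberg adjusted p under 0.05). All 11 lay among the 131 tested members numbered below Zm00001d022193, and 0 lay among the 129 numbered above it. That is 4.23% of the tested members and 8.40% of those below, beside 1.34% of the 20870 tested Zm00001d IDs. At an unadjusted edgeR p under 0.05 there were 47 of the 131 members below, or 35.9%, and 17 of the 129 above, or 13.2%, beside 13.1% of all tested Zm00001d IDs. DESeq2, another count test, called 25 members, 22 below and 3 above, beside 3.76% of the Zm00001d IDs to which it gave an adjusted p. The difference between the sides was not tested, since the range was chosen with these calls known.

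The number of called members depended on single libraries, and none of the calls lay above Zm00001d022193 when any library was left out. The count of 11 became 4 when ra3;tpp4 replicate 1 was left out, and 5, 5 and 6 when WT replicates 1, 2 and 3 were left out in turn. It became 14 and 13 when replicates 2 and 3 of the double mutants were left out in turn. With no filter on low counts 18 members were called, 17 below and 1 above. The share of all Zm00001d IDs called in each of these fits is not given here, so these counts stand without a background.

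**Figure D1:**
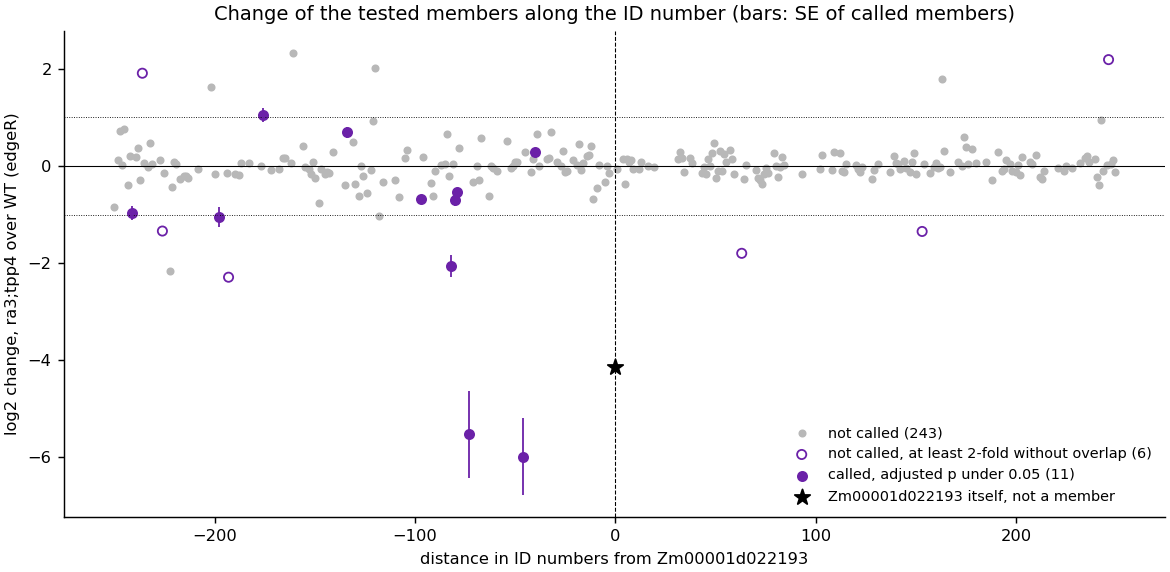
Log2 change (ra3;tpp4 over WT, vertical axis) of the 260 tested members against their distance in ID numbers from Zm00001d022193 (horizontal axis), with the SE for called members, dotted lines at 2-fold and a star for Zm00001d022193 itself. The 11 called members (filled purple) all lie left of 0, from 241 to 40 numbers below, the lowest being Zm00001d022120 and Zm00001d022147, whose fitted values depend on the fit's treatment of counts near 0.

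Of the 11 called members, 8 fell and 3 rose in ra3;tpp4. Over all tested Zm00001d IDs the order was the other way round, with 0.412% called lower and 0.93% called higher. The changes were mostly moderate: Zm00001d022120, Zm00001d022147 and Zm00001d022111 changed by over 4-fold, Zm00001d022017 and Zm00001d021995 by just over 2-fold, and the other 6 by less.

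Zm00001d022120 and Zm00001d022147 were present in WT and nearly without reads in ra3;tpp4. Zm00001d022120 had 0, 1 and 0 counts in double mutant replicates 1, 2 and 3, and 32, 14 and 25 counts in WT. Zm00001d022147 had 0, 1 and 0 counts in ra3;tpp4, and 35, 38 and 25 counts in WT. After scaling for library size, the ratio of ra3;tpp4 to WT was 0.0163 for Zm00001d022120 (95% exact interval 0.000408 to 0.0941) and 0.0118 for Zm00001d022147 (0.000297 to 0.0676). These intervals cover counting error only. Both fell in edgeR, with adjusted p = 0.0181 and 0.00785. WT held 71 of the 72 counts of Zm00001d022120 and 98 of the 99 of Zm00001d022147. Both thus reached the count minimum and passed the filter of the test through WT alone. The calls restate this contrast and are not separate support for it. When a CPM of at least 1 was asked of 3 libraries, neither was tested. The call for Zm00001d022147 was made in each of the 12 alternatives that tested it, and that for Zm00001d022120 in 9 of 12, with adjusted p up to 0.0868.

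This on/off pattern was set as at least 10 counts in every library of one genotype and at most 1 in every library of the other. It was met by 2 of the 272 members, 73 and 46 numbers below Zm00001d022193, and by 3 of the 21945 Zm00001d IDs with at least 30 counts, or 0.0137%. The remaining one, Zm00001d017375, had 0 counts in each ra3;tpp4 library and 24, 19 and 26 in WT. No Zm00001d ID had the opposite pattern. With up to 3 counts allowed in the lower genotype the members meeting it were still 2, and 5 IDs in all were seen in WT against 2 in ra3;tpp4. Both on/off members are thinly counted, with 72 and 99 counts over all libraries, so neither passes a minimum of 100 counts or a rule that asks for 0 counts.

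Zm00001d022111 had the largest fall among the called members other than the on/off pair. It stood at 9.40, 15.9 and 15.6 CPM in ra3;tpp4 replicates 1, 2 and 3, and at 69.0, 54.3 and 47.5 CPM in WT. The highest mutant library was thus far below the lowest WT library, and the level was 4.18-fold lower in the double mutants (log2 change -2.06, SE 0.231, edgeR adjusted p = 0.0159). The call was kept in 11 of 13 alternatives, with adjusted p from 3.0e-24 in DESeq2 to 0.0750.

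Close to Zm00001d022111 in number lay 2 more called members, both lower in the double mutants, and several uncalled ones that went either way. Zm00001d022113 averaged 16.2 ± 2.07 CPM in the double mutants and 26.3 ± 0.983 CPM in WT (SD, n = 3 each; log2 change -0.70, edgeR adjusted p = 0.0163). Zm00001d022114 averaged 69.5 ± 7.10 CPM in ra3;tpp4 and 101 ± 5.04 CPM in WT (SD, n = 3 each; log2 change -0.54, edgeR adjusted p = 0.0158). Zm00001d022112, which carries the number between Zm00001d022111 and Zm00001d022113 and was singled out after its values were seen, had 46.5, 41.8 and 47.3 CPM in the double mutants and 43.3, 47.4 and 40.2 CPM in WT. Its libraries overlapped, with a log2 change of 0.05 (SE 0.0890, edgeR adjusted p = 0.859). Other uncalled neighbours, also picked after their values were seen, showed no overlap. Zm00001d022109 and Zm00001d022115 were higher in the double mutants (log2 change 0.66 and 0.36, edgeR adjusted p = 0.0993 and 0.0524). Zm00001d022110 was lower (log2 change -0.21, edgeR adjusted p = 0.288).

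A little lower in number, Zm00001d022096 had 44.6, 50.3 and 48.5 CPM in double mutant replicates 1, 2 and 3, and 83.2, 76.5 and 69.3 CPM in WT. The genotypes stood well apart, and the level was 1.597-fold lower in the double mutants (log2 change -0.68, SE 0.0866, edgeR adjusted p = 0.00717). This member was called in 13 of 13 alternatives. Together with Zm00001d022111, Zm00001d022113, Zm00001d022114 and Zm00001d022120 it makes up 5 calls, all lower in the double mutants, among the 26 tested IDs from Zm00001d022093 to Zm00001d022142. Over all tested Zm00001d IDs, 1.34% were called and 0.412% were called lower. This stretch held the most calls of the 5 stretches of 50 numbers below Zm00001d022193. The others held 1, 2, 1 and 2 calls, which went in both directions.

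The remaining lower members lay farther out. Zm00001d021952, 241 numbers below Zm00001d022193, had 40.2, 43.4 and 47.2 CPM in ra3;tpp4 replicates 1, 2 and 3, and 97.3, 90.8 and 65.7 CPM in WT. WT replicate 3 was the nearest to the mutants, and the level was 1.94-fold lower in the double mutants (log2 change -0.96, SE 0.143, edgeR adjusted p = 0.0224). Zm00001d021995 had 3.29, 3.94 and 4.96 CPM in ra3;tpp4, and 9.21, 6.76 and 9.12 CPM in WT, a 2.07-fold fall (log2 change -1.05, SE 0.206, edgeR adjusted p = 0.0339). Each was called in 9 of 13 alternatives, with adjusted p up to 0.0777 for Zm00001d021952 and 0.156 for Zm00001d021995.

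Zm00001d022017, Zm00001d022059 and Zm00001d022153 rose. Zm00001d022017 had 69.8, 87.3 and 74.8 CPM in double mutant replicates 1, 2 and 3, and 36.8, 30.5 and 44.8 CPM in WT. Its lowest mutant library exceeded its highest WT library, and the rise was 2.07-fold (log2 change 1.05, SE 0.143, edgeR adjusted p = 0.0163), called in 12 of 13 alternatives.

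Zm00001d022059 averaged 35.5 ± 4.44 CPM in ra3;tpp4 and 21.9 ± 2.11 CPM in WT (SD, n = 3 each; log2 change 0.70, SE 0.114, edgeR adjusted p = 0.0183), and 9 of 13 alternatives called it. Zm00001d022153 was the called member nearest to Zm00001d022193, 40 numbers below it. It averaged 155 ± 5.26 CPM in the double mutants and 126 ± 1.83 CPM in WT (SD, n = 3 each), a 1.22-fold rise (log2 change 0.29, SE 0.0611, edgeR adjusted p = 0.0451). Its libraries did not overlap, but the call was made in only 6 of 13 alternatives, with adjusted p up to 0.154.

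**Figure D2:**
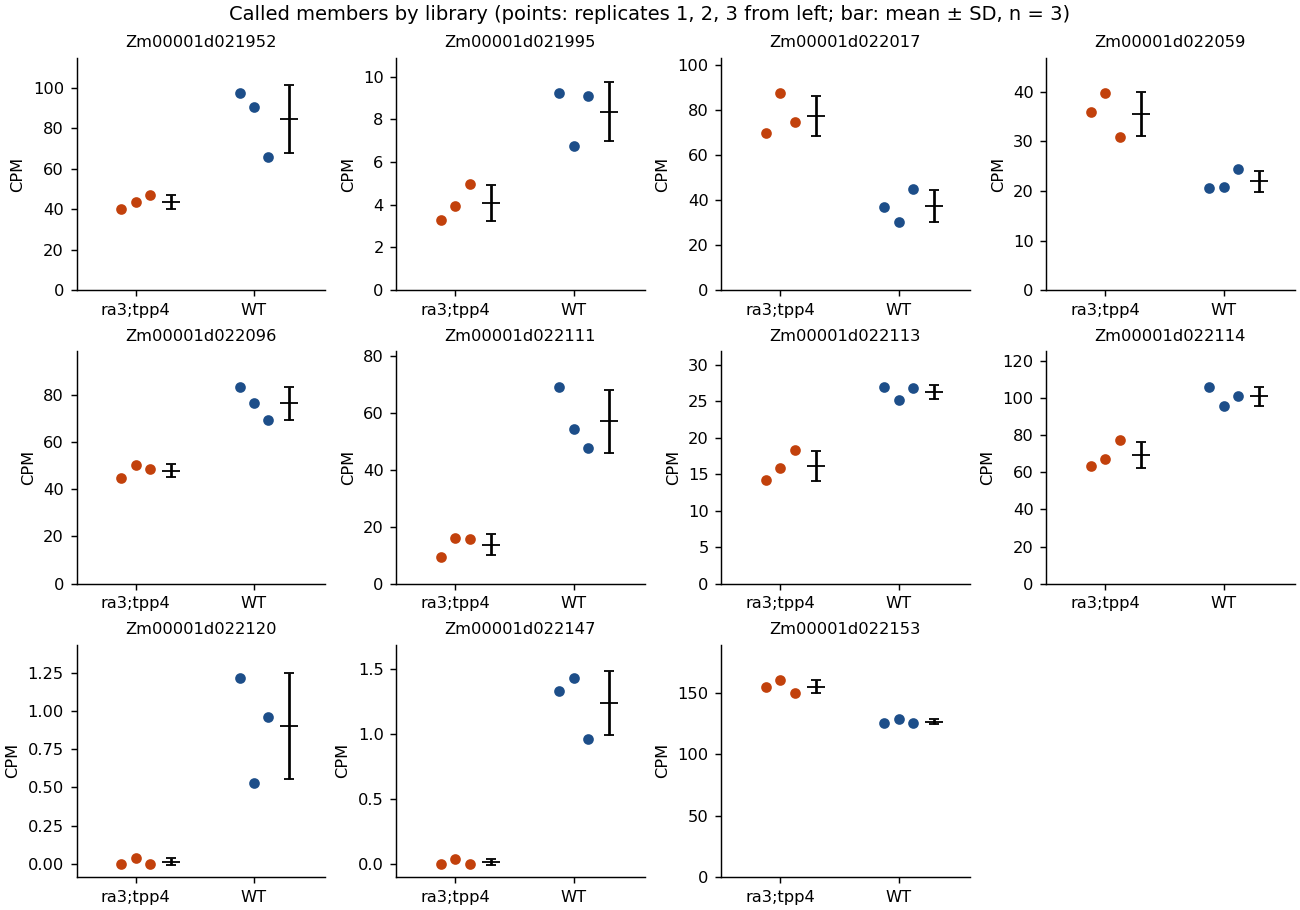
Scaled CPM (vertical axes, which include 0) of the 11 called members in each library, ra3;tpp4 in orange and WT in blue, with the mean ± SD (n = 3). Zm00001d022017, Zm00001d022059 and Zm00001d022153 are higher in the double mutants and the other 8 are lower, and the libraries of the genotypes do not overlap in any panel.

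Tested members between the called ones were mixed. From Zm00001d021952 to Zm00001d022153, the first and the last called, 89 of the 100 tested members were not called. Of these 89, 54 differed by less than 1.2-fold between the genotypes, or 60.7%, beside 77.0% of all uncalled Zm00001d IDs. The most abundant member of all, Zm00001d022134, lay in this stretch. It had 1008, 1117 and 1007 CPM in ra3;tpp4 replicates 1, 2 and 3, and 1157, 1120 and 1070 CPM in WT, with a log2 change of -0.10 (SE 0.0694, edgeR adjusted p = 0.611).

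A few uncalled members sat close to the threshold. Zm00001d022184, Zm00001d022161 and Zm00001d022115, singled out after their values were seen, had log2 changes of -0.44, 0.71 and 0.36 with edgeR adjusted p of 0.0507, 0.0514 and 0.0524. All 3 lie below Zm00001d022193, the first by only 9 numbers.

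The sizes of the changes, called or not, were also compared between the sides, as a description. Below Zm00001d022193 the median size of the log2 change was 0.21 and 9.92% of 131 tested members differed by at least 2-fold. Above it the median size was 0.12 and the share 3.10% of 129. Over all tested Zm00001d IDs these values were 0.12 and 3.25%. Directions were mixed: the median log2 change was -0.01 below and 0.00 above, and 73 of the 131 members below had a negative one, beside 50.2% of all tested Zm00001d IDs. Median levels were alike on the sides, at 25.4 CPM below and 24.8 CPM above in ra3;tpp4, and at 26.3 CPM below and 26.8 CPM above in WT.

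The genotypes did not overlap in 47 of the 131 tested members below and in 25 of the 129 above, beside 19.3% of all tested Zm00001d IDs. Of the 47, 26 were lower and 21 higher in the double mutants.

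A lack of overlap together with a difference of at least 2-fold was met by 11 members, 8 lower and 3 higher in the double mutants, or 4.23% of the tested members beside 2.23% of all tested Zm00001d IDs. Only 5 of these 11 were among the 11 called. Of the 11, 8 lay below Zm00001d022193 and 3 above. The count became 18 when WT replicate 3 was left out and 19 when replicate 3 of the double mutants was. It was 5 when a CPM of at least 1 was asked of 3 libraries, and 6 of the 11 averaged at least 1 CPM.

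The 6 uncalled ones were mostly thinly counted or variable. Zm00001d022346 and Zm00001d021967, however, held 325 and 170 counts over all libraries, more than either called on/off member. Zm00001d021967 had 10, 20 and 13 counts in ra3;tpp4 and 59, 43 and 25 in WT (edgeR adjusted p = 0.210). The outermost were Zm00001d021957, 236 numbers below, with 14, 29 and 8 counts in ra3;tpp4 and 4, 5 and 6 in WT (edgeR adjusted p = 0.163), and Zm00001d022439, 246 numbers above, with 23, 34 and 16 counts in ra3;tpp4 and 7, 8 and 3 in WT (edgeR adjusted p = 0.0693). Above Zm00001d022193 the other 2 were Zm00001d022256, at 0.197 ± 0.0585 CPM in ra3;tpp4 and 0.683 ± 0.135 CPM in WT, and Zm00001d022346, at 1.22 ± 0.323 CPM in the double mutants and 3.08 ± 0.515 CPM in WT (SD, n = 3 each). Their edgeR adjusted p were 0.154 and 0.0641.

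The edges were followed in steps of 50 numbers. In the 5 steps below Zm00001d022193, from the farthest to the nearest, 1, 2, 1, 5 and 2 members were called, and in the 5 steps above it none. The share of tested members without overlap was 24.1%, 23.8%, 45.8%, 46.2% and 38.7% in the steps below, and 8%, 28%, 15.4%, 15.4% and 29.6% in the steps above. Within the range, the largest contrast in this share between neighbouring steps lay at Zm00001d022193. There the 38.7% just below lay above the 19.3% of all tested Zm00001d IDs, and the 8% just above lay below it. An unadjusted edgeR p under 0.05 was found in 10 of 31 tested members in the 50 numbers just below and in 1 of 25 just above, but by that measure a wider gap lay farther down, with 2 of 21 in the step 200 to 151 numbers below and 12 of 24 in the step 150 to 101 numbers below.

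Right beside Zm00001d022193 edgeR called no member on either side. The 24 tested members between Zm00001d022153 and Zm00001d022193 were all uncalled in edgeR. Among them, Zm00001d022184 and Zm00001d022161 came close, with edgeR adjusted p of 0.0507 and 0.0514 and no overlap. In the 50 numbers just below Zm00001d022193, edgeR called 2 members and DESeq2 called 6, and 12 of 31 tested members showed no overlap. In the 50 numbers just above, both called 0, and 2 of 25 showed no overlap. Over all tested Zm00001d IDs, edgeR called 1.34% and 19.3% showed no overlap, and DESeq2 called 3.76% of those it gave an adjusted p. The 2 of 25 just above, or 8%, thus lay below that background, and the next step above had 28%. The 4 nearest below, Zm00001d022190, Zm00001d022189, Zm00001d022188 and Zm00001d022185, had log2 changes of -0.15, -0.01, -0.32 and 0.02, with edgeR adjusted p from 0.333 to 0.986. The 4 nearest above, Zm00001d022194, Zm00001d022197, Zm00001d022198 and Zm00001d022199, had log2 changes of -0.06, 0.15, -0.36 and 0.14, with edgeR adjusted p from 0.110 to 0.907. Zm00001d022194, which follows Zm00001d022193 directly, had 10.1, 8.39 and 12.03 CPM in ra3;tpp4 and 11.8, 9.76 and 10.2 CPM in WT, so its libraries overlapped, where those of Zm00001d022193 stood 17.5-fold apart.

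The place of the lower edge depended on the measure. In the 2 lowest steps of the range, 24.1% and 23.8% of tested members showed no overlap, close to the share beyond the range. An unadjusted edgeR p under 0.05 was found in 11 of 29 and 2 of 21 tested members of these steps. Beyond the range, the 250 numbers below it held 2 calls among 117 tested IDs, the nearer being Zm00001d021932, 261 numbers below Zm00001d022193. Of these 117, 15.4% had an unadjusted p under 0.05 and 23.9% showed no overlap. On the other side, the 250 numbers above the range held 1 call among 118 tested IDs, Zm00001d022636, 443 numbers above, with 10.2% under an unadjusted p of 0.05.

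**Figure D3:**
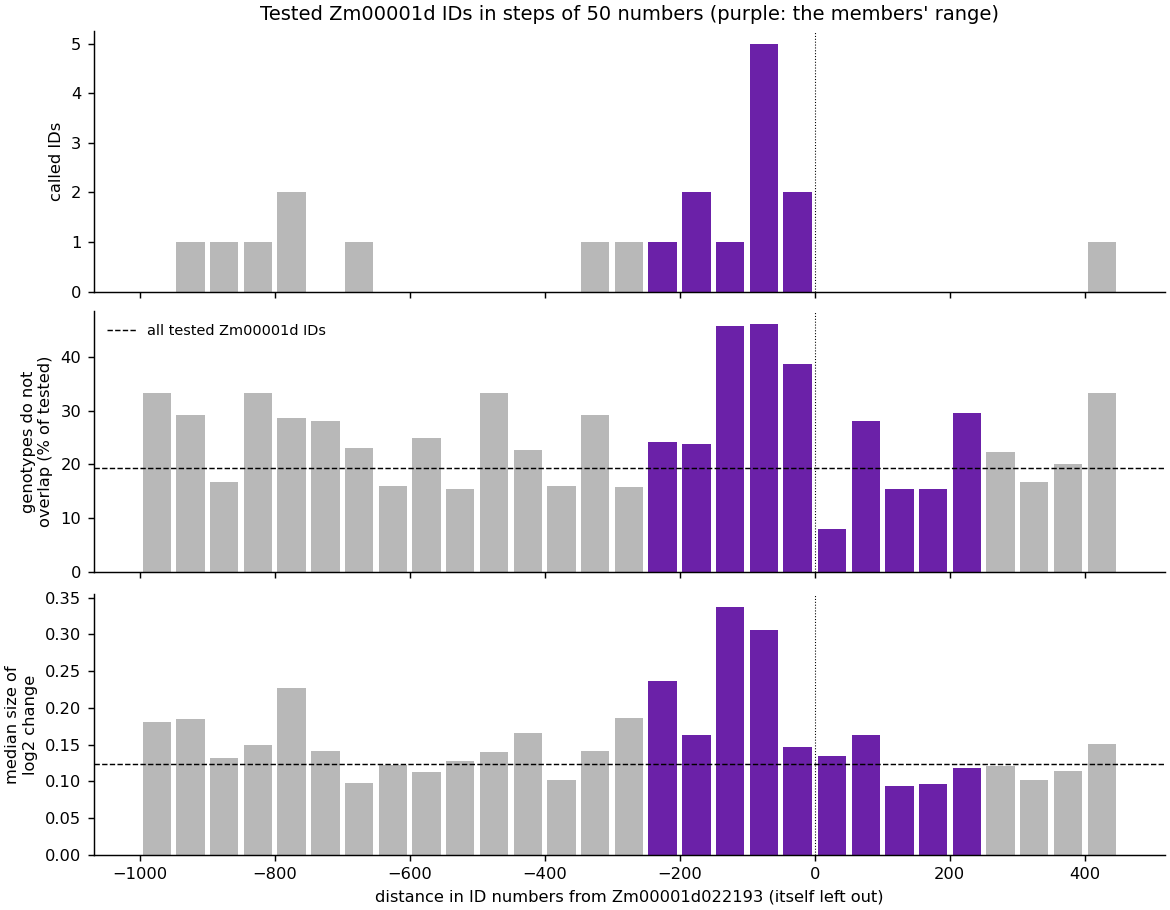
Called IDs (top), share of tested IDs whose genotypes do not overlap (middle, %) and median size of the log2 change (bottom), in steps of 50 ID numbers by distance from Zm00001d022193 (horizontal axis); purple steps are the members' range, and dashed lines in the lower panels give the value over all tested Zm00001d IDs. The 3 steps just below 0 reach 38.7% to 46.2% without overlap, and the step just above 0 has 8%.

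Against number ranges of the same length elsewhere, the range stood first in calls. All Zm00001d numbers were divided into ranges of 501 numbers laid outward from it, and 106 others held at least 50 tested IDs. The highest of these held 8 calls and the median range 2, where the members held 11. By the share of tested IDs without overlap the range was also first, at 27.7%, beside 27.2% in the next. It was second in the number of IDs at least 2-fold apart without overlap, 11 against a highest value of 12, but had rank 7 by their share of tested IDs, 4.23% against a highest value of 6.19%. It was ninth in the median size of the log2 change, 0.15 against a highest value of 0.18. When WT replicate 1 was left out the range had rank 2 in calls, and when ra3;tpp4 replicate 1 was left out it had rank 3.

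All calls of the range came from the numbers below Zm00001d022193. Among 201 other ranges of 250 numbers, a length chosen after the calls were seen, the highest count was 6 calls and the highest share with an unadjusted edgeR p under 0.05 was 26.2%. The members below Zm00001d022193 had 11 calls and 35.9%. Their median size of the log2 change, 0.21, also lay above the highest other value, 0.19. The ranges differ in tested IDs, and as a share of these the calls below were 8.40%, beside a highest other value of 7.5%. The share at least 2-fold apart was 9.92% below, beside a highest other value of 9.89%. By the share at least 2-fold apart without overlap the members below had rank 5, at 6.11% against a highest value of 8.75%. The members above had 0 calls, as did 59 of the 201 others, and 13.2% of them passed the unadjusted threshold, beside a median of 12.5% in the others.

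**Figure D4:**
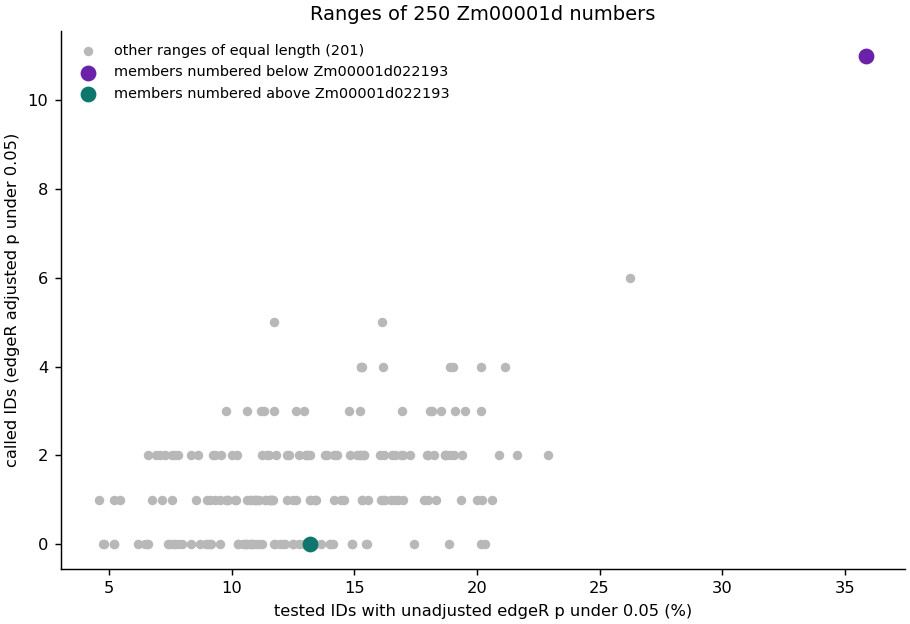
Called IDs (vertical axis) against the share of tested IDs with an unadjusted edgeR p under 0.05 (horizontal axis, %) in ranges of 250 Zm00001d numbers. The members numbered below Zm00001d022193 (purple, 35.9% and 11 calls) lie apart from the 201 other ranges (grey), and the members above (green, 13.2% and 0 calls) lie among them. Calls are numbers and not shares: as a share of tested IDs they are 8.40% below, beside a highest other value of 7.5%.

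On the lower side, pairs of libraries of different genotype mostly differed at more members than pairs of the same genotype. Among the 131 tested members below, 3.82% to 13.7% (median 8.40%) differed by at least 2-fold on the log2(CPM + 0.5) scale in the 9 pairs of a ra3;tpp4 and a WT library. In pairs of ra3;tpp4 libraries the share was 2.29% to 3.05%, and in pairs of WT libraries 0.763% to 5.34%. Over all tested Zm00001d IDs these pairs gave 0.858% to 3.93% in ra3;tpp4 and 0.685% to 1.40% in WT. The pair of WT replicates 1 and 3 had the 5.34%, beside 1.40% over all, so these WT libraries also differed from each other here. Among the 129 tested members above, the 9 pairs between genotypes gave 0.775% to 4.65%, beside 1.63% to 5.29% over all tested Zm00001d IDs. The pairs share libraries and are not independent.

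Taken one library at a time, 7, 9 and 3 members lay at least 2-fold from every WT library on one side in double mutant replicates 1, 2 and 3. These were 2.69%, 3.46% and 1.15% of the tested members, beside 0.8002%, 2.30% and 0.609% of all tested Zm00001d IDs. Zm00001d022111 and Zm00001d022147 did so in all 3 libraries, or 0.769% of the tested members, beside 0.177% of all tested Zm00001d IDs. In ra3;tpp4 replicate 3 all 3 such members lay in the stretch that runs from Zm00001d022111 to Zm00001d022147, these included.

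Replicate 3 of both genotypes stood between the others at several low-numbered members. In replicates 1 and 2 alone, 8 members had every ra3;tpp4 library at least 2-fold from every WT library on the log2(CPM + 0.5) scale. For these the position of replicate 3 was expressed as 0 at the WT mean and 1 at the ra3;tpp4 mean of replicates 1 and 2, a measure chosen after the values were seen. For Zm00001d021952, Zm00001d021971, Zm00001d021991, Zm00001d022000 and Zm00001d022073 the position was 0.850, 0.381, 0.741, 0.257 and 0.506 in ra3;tpp4 replicate 3, and 0.442, 0.518, 0.825, 0.220 and 0.525 in WT replicate 3. WT replicate 3 was thus as close to the mutants as ra3;tpp4 replicate 3, or closer, at 3 of these 5. At Zm00001d021952 and Zm00001d021991 the position of ra3;tpp4 replicate 3 was not unusual, beside a median of 0.744 among 90 other IDs selected in the same way. At Zm00001d021971, Zm00001d022000 and Zm00001d022073 it lay well below that median.

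For the 3 with higher numbers the genotypes stayed apart. Zm00001d022111, Zm00001d022147 and Zm00001d022346 had positions of 0.854, 1.03 and 0.652 in ra3;tpp4 replicate 3, and 0.159, 0.194 and 0.126 in WT replicate 3. Among 90 Zm00001d IDs outside the members that were selected in the same way, the median position was 0.744 in ra3;tpp4 replicate 3 and 0.0383 in WT replicate 3, and 7.78% had WT replicate 3 at 0.4 or more, as 4 of the 8 members did. When replicate 1 or 2 was held out instead, only 2 and 3 members were selected, all from Zm00001d022111 to Zm00001d022147, and the held-out WT library had positions of -0.265 to 0.376.

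Zm00001d022000 varied widely within each genotype. It had 0.0843, 7.32 and 26.9 CPM in ra3;tpp4 replicates 1, 2 and 3, from 2 to 509 counts, and 73.01, 58.8 and 30.6 CPM in WT. The genotypes did not overlap, but replicates 3 nearly met, and the member was not called (log2 change -2.29, SE 1.24, edgeR adjusted p = 0.534). Zm00001d021991 had 11.2, 9.41 and 5.70 CPM in the double mutants and 0.531, 1.09 and 6.92 CPM in WT, so that WT replicate 3 lay above ra3;tpp4 replicate 3 (edgeR adjusted p = 0.560). Zm00001d021971 ran the other way, with 0.0422, 0.118 and 0.844 CPM in ra3;tpp4 and 2.31, 1.31 and 0.615 CPM in WT (edgeR adjusted p = 0.337). In replicates 1 and 2 these members stood several-fold apart, and over all libraries they did not pass the test. What sets replicate 3 apart at these members was not tested.

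**Figure D5:**
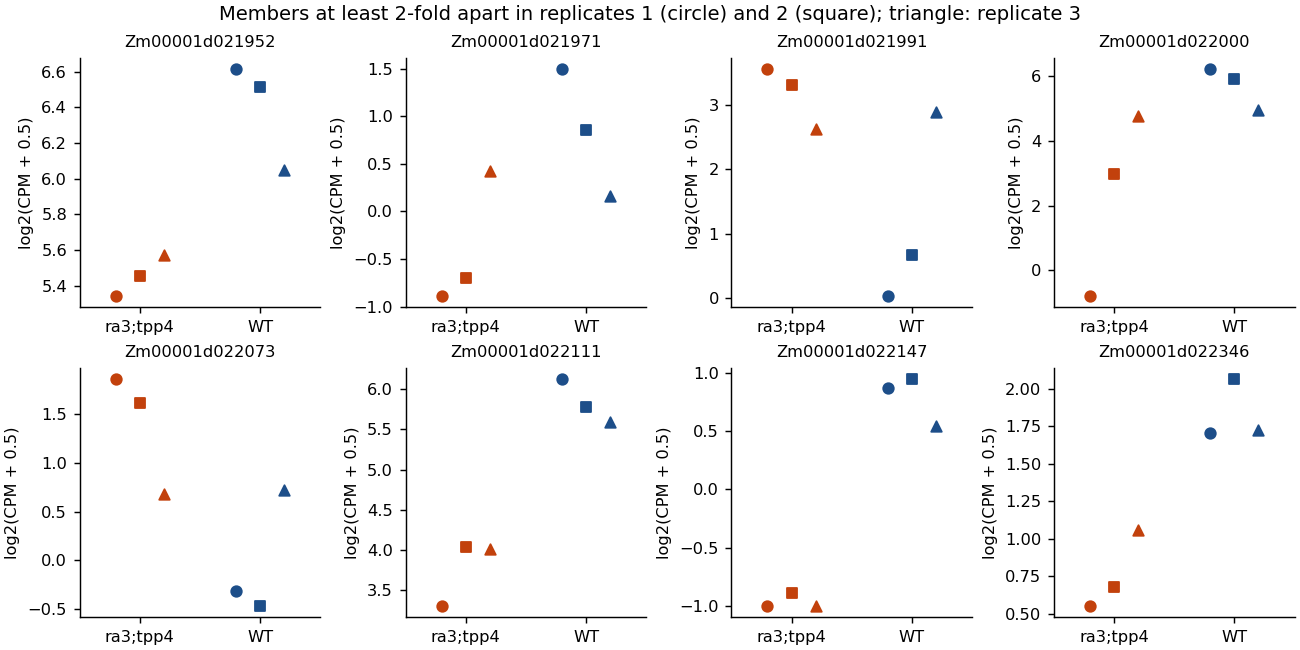
Level on the log2(CPM + 0.5) scale (vertical axes) in each library of the 8 members that were at least 2-fold apart in replicates 1 (circles) and 2 (squares), ra3;tpp4 in orange and WT in blue, with triangles for replicate 3, which was not used to select them. From Zm00001d021952 to Zm00001d022073 the triangles lie closer together than the other symbols, and for Zm00001d022111, Zm00001d022147 and Zm00001d022346 they lie with their own genotype.

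A few other members were high in one library. Zm00001d022032 had 0.506, 26.7 and 1.48 CPM in double mutant replicates 1, 2 and 3, and 0.910, 0.638 and 4.27 CPM in WT. Zm00001d022356 had 1.86, 15.1 and 2.01 CPM in ra3;tpp4, and 1.40, 2.14 and 2.00 CPM in WT. In both, ra3;tpp4 replicate 2 stood above all other libraries, and neither was called (edgeR adjusted p = 0.662 and 0.513).

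Most tested members were not called in edgeR. That every member held at least 30 counts follows from the way the members were chosen. The share of IDs with no count was 23.8% in the range and 33.9% over all Zm00001d IDs, and 62.2% of the IDs in the range were members, beside 49.7% over all. Mean levels of the tested members spanned 0.440 to 1080 CPM. After Zm00001d022134, the most abundant were Zm00001d022338, at 761 ± 59.1 CPM in the double mutants and 782 ± 33.8 CPM in WT, and Zm00001d022286, at 590 ± 14.6 CPM in ra3;tpp4 and 660 ± 10.6 CPM in WT (SD, n = 3 each). Neither was called (edgeR adjusted p = 0.868 and 0.260), although the libraries of Zm00001d022286 did not overlap. These are levels per library and not per gene length.

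The minimum of 30 counts fell where few reads decide. Zm00001d022081 and Zm00001d022420, with 31 counts each, and Zm00001d022344 and Zm00001d022372, with 35 each, were the members just inside it, and Zm00001d022107 and Zm00001d022415, with 26 each, and Zm00001d022192, with 20, were just outside. In all, 12 members failed the filter of the test, 6 on each side of Zm00001d022193, with 31 to 112 counts over the 6 libraries.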

How the data were processed

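The authors deposited raw read counts for each gene ID, with 1 file for each of 6 libraries. Per the submitters' processing notes, the authors used Trimmomatic 0.36, HISAT2 2.1.0, HTSeq and the build B73 RefGen_v4. Of the annotation release, parameters and strand setting nothing is stated in the labels, so counts of overlapping, antisense or near-identical genes are uncertain. The 5 HTSeq lines that name no gene took 22.3% to 24.7% of records in ra3;tpp4 and 31.1% to 34.5% in WT, and entered neither library sizes nor tests.

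The whole table was fitted with edgeR 4.0.16 in R 4.3.3 (filterByExpr, TMM scaling, robust quasi-likelihood F test, genotype with WT as reference), and p-values were adjusted by Benjamini-Hochberg over all 21127 IDs tested. Each SE is the size of the log2 change over the square root of F. CPM are scaled by TMM. Members, lists and ranges were chosen with earlier results of these data known. Members named are the called and on/off ones, the outermost 2-fold ones, the 4 nearest on each side of Zm00001d022193, the 3 most abundant and those at the count minimum, and others are marked as chosen after their values were seen or belong to a stated count. On counts drawn from the real means for this comparison, the fit called 73 of 99 IDs changed 2-fold, 93 of 100 changed 4-fold and 24 of 20737 left alone.

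Alternatives were DESeq2 1.42.0, limma-voom (limma 3.58.1), other scalings, filters, range widths and count minimums, the replicate number as a block, and each library left out. The replicate numbers were not taken to pair libraries: around the group means, the deviations of libraries that share a number had correlations of -0.200, -0.135 and 0.180.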

Additional observations from a re-analysis of the deposited data

How the results depend on the processing

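The count of 11 called members was 18 with no filter on low counts and 25 in DESeq2, 7 with 125 numbers either side, and 4 to 14 when each library was left out. For the fits without a filter or without a library, the share called over all Zm00001d IDs is not given here. The count above Zm00001d022193 was 1 with no filter, 3 in DESeq2, 1 with 500 numbers either side and 0 without any one library. Members at least 2-fold apart without overlap numbered 5 with the CPM filter, 4 with 125 numbers either side, 6 with a minimum of 100 counts, 21 at 1.5-fold, 5 at 4-fold, and 11 to 19 when each library was left out. On/off members were 0 with a minimum of 100 counts and 0 under the rule of 20 counts against 0. The share of tested members at least 2-fold apart was 4.07% with the CPM filter. The rank in calls was 1 to 3 when each library was left out, and 1 by DESeq2 calls. It was also 1 when the other ranges were shifted while the members' range stayed in place. With the replicate block, 8 members were called, all of them among the 11. Nothing in the labels makes the replicate numbers a pairing, and for 2 of 6 libraries the best correlation was with the same number. Other scalings and limma-voom called 12 members, including all 11. Small changes of uncalled members turned sign when libraries were left out, with log2 ranges of -0.0450 to 0.0420 for Zm00001d022189, -0.196 to 0.0615 for Zm00001d022194, -0.0274 to 0.0767 for Zm00001d022185 and -0.0783 to 0.0235 for Zm00001d022338. The causes were not tested, apart from fewer IDs or libraries entering by construction. Depth limits statements on members with fewer than about 10 counts per library.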

Other observations

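The 12 members that failed the filter held few counts, and some were uneven between libraries of one genotype. Zm00001d021981 had 0, 0 and 7 counts in ra3;tpp4 replicates 1, 2 and 3, and 19, 16 and 5 in WT. Zm00001d022361 had 0, 6 and 1 counts in ra3;tpp4, and 5, 100 and 0 in WT, so that WT replicate 2 held nearly all of them. Zm00001d022430 had 3, 29 and 2 counts in ra3;tpp4, and 1, 2 and 7 in WT.

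Among ranges of 250 numbers, the one with the next highest share under an unadjusted edgeR p of 0.05 ran from Zm00001d052444 to Zm00001d052692, with 26.25% of 80 tested IDs and 6 calls, 2 lower and 4 higher in ra3;tpp4. It held 0 IDs of the on/off kind. The 250 numbers from Zm00001d021193 to Zm00001d021442, on the same lower side but 751 to 1000 numbers away, held 5 calls among 124 tested IDs, 2 lower and 3 higher.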
